A study of Mus musculus with 20 samples.

Results

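The B and T lymphocyte genes described here are 34 named genes of the 55416 gene rows counted in mouse dorsal root ganglia, where the cell bodies of sensory neurons lie along the spine. They were taken by symbol from a list drawn up with earlier results of these data known, and fall into 6 genes of B cell precursors, 11 of mature B cells, 2 of antibody-secreting cells and 15 of T cells. All 34 were found in the count table. The series asked how loss of Prdm12, a transcription factor gene of pain-sensing neurons, changes ganglion transcripts under inflammation. It holds 20 polyA RNA libraries of lumbar ganglia (L3, L4 and L5), 2 from each of 10 adult C57Bl6 mice: 1 labelled formalin, an irritant that causes inflammatory pain, and 1 labelled noninjected. All 10 animals carried floxed Prdm12 alleles (P12 Fl/Fl) and had received tamoxifen 1 month earlier. The 5 animals labelled control carried no Cre. The 5 labelled icKO, for inducible conditional knockout, also carried a tamoxifen-inducible Cre, which the sample labels give as AdvCreERT2 and the series text as Rosa26CreERT2. Both names stand here because nothing in the labels settles between them. Advillin (Adv) drives Cre in sensory neurons, whereas the Rosa26 locus is active in most cell types, lymphocytes included. Control animals 1 and 2 and icKO animals 1, 2 and 3 were female, and the other 5 were male.

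B cells arise in the bone marrow. There RAG1 and RAG2 cut and DNTT extends the antibody gene segments, while the surrogate light chain, built by VPREB1 and IGLL1, tests each new heavy chain. Mature B cells leave the marrow carrying IgM or IgD paired with CD79A and CD79B, and antibody-secreting cells add the joining chain JCHAIN. T cells mature in the thymus and are recognised by the CD3 chains around their antigen receptor and by CD4 or CD8. A normal ganglion holds few lymphocytes beside its neurons, glia and macrophages. Bulk RNA cannot tell fewer cells of a type from less RNA per cell.

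One library, icKO 1 formalin, held 2829 counts and was left out. The other 19 held 11763893 to 22392635 counts. The summed level of 10 sensory neuron genes lay between 9128 and 15660 CPM (counts per 1000000 counts) in all 19, so the labelled tissue matched its markers. The genotype in the sample title differed from that in the deposited name for 4 animals (control 1, control 4, icKO 2 and icKO 3). Prdm12 itself stood at 84.2 to 100.9 CPM in controls 2, 3 and 5 and at 18.1 to 23.7 CPM in icKO 1, 4 and 5, whose records agree. It stood at 25.9 and 32.7 CPM in the animals labelled control 1 and control 4, and at 73.1 and 98.5 CPM in those labelled icKO 2 and icKO 3. By deposited name, the animals named icKO all stood at 18.1 to 32.7 CPM and those named control at 73.1 to 100.9 CPM. Groups by title therefore mix animals with low and high Prdm12. Each genotype comparison is given for all animals as labelled by title and for the 6 animals whose records agree. Directions are those of the titles unless the deposited names are stated.

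Most lymphocyte genes were scarce. Over the 19 libraries, mean levels of 32 members ran from 0.0941 CPM (Rag2) to 3.77 CPM (Lck). The exceptions were Jchain at 125.1 ± 83.1 CPM (SD, n = 19) and the IgM heavy chain gene Ighm at 88.8 ± 34.6 CPM. Rag2, Vpreb1 and Ccr7 had 0 counts in 8, 3 and 1 of the 19 libraries, which allows up to 3 counts in each. Per kilobase of median transcript length, Jchain (67.0 CPM per kb) and Ighm (55.6) also led. Lck (5.43) and Cd3d (4.34) followed, and Rag2 (0.0356) was lowest.

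The promoters of 5 members that were highest in the formalin library of icKO 4 or icKO 5 are shown before their values, to show which lymphocyte factor motifs lie at the start of these genes. They come from RefSeq (GRCm38.p6) and run from 250 bases before to 50 bases after the gene start. They are Rag1 at chr2:101649483-101649782 on the minus strand, Igll1 at chr16:16863936-16864235 (minus), Vpreb3 at chr10:75948050-75948349 (plus), Cd22 at chr7:30878979-30879278 (minus) and Il7r at chr15:9529827-9530126 (minus). Capitals mark matches, on either strand, to the letters searched for EBF (TCCC, any 2 bases, GGGA), the octamer (ATGCAAAT), Ikaros (TGGGAA), the E-box (CAGCTG) and Runx (TGTGGT).
Rag1: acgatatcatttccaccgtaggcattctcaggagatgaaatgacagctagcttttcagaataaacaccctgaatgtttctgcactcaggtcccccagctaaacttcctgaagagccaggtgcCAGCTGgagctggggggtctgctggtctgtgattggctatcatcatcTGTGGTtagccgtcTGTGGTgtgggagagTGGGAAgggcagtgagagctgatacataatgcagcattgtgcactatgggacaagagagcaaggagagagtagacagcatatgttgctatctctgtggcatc
Igll1: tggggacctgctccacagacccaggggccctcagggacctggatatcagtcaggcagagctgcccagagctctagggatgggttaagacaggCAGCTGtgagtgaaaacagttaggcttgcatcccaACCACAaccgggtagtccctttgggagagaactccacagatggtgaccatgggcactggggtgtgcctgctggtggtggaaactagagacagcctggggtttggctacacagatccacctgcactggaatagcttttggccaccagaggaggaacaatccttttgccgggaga
Vpreb3: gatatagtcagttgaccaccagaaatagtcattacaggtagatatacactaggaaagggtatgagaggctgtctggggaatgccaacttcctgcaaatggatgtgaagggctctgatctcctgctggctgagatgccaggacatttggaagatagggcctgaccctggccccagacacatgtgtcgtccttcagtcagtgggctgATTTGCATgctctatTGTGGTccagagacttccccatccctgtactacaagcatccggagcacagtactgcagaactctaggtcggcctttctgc
Cd22: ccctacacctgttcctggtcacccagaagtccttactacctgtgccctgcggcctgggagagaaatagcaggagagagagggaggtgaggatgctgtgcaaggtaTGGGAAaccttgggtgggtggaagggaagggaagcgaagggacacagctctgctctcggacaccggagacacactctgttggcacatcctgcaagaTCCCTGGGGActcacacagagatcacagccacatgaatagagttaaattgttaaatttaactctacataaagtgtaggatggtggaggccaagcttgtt
Il7r: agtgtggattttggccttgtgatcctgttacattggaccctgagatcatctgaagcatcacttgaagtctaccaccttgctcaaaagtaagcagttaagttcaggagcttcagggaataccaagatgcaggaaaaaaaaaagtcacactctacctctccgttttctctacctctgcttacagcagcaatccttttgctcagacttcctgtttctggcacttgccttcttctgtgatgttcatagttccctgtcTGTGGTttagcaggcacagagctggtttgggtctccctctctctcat
Counted from the gene start, Rag1 held the E-box at position -128, Runx letters at -81 and -67 and Ikaros letters at -52. Vpreb3 held the octamer, in reverse orientation, at -45. Cd22, an inhibitory receptor of B cells, held the EBF letters at -49. No matches overlapped each other in these 5 promoters. Of the 20 members with a promoter in the table, 1 held the EBF letters, against 0.904% of 32851 mouse promoters of the same length. The octamer was in 2 (Vpreb3 and Blnk) against 1.74%, Ikaros in 7 against 25.6%, the E-box in 4 against 16.3% and Runx in 6 against 16.8%. These matches describe letters and show no binding.

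B precursor genes each averaged under 1 CPM, and their sum was above 0 in every library and highest in the formalin library of icKO 4. Rag1 measured 1.07, 0.688, 0.292, 0.376 and 0.938 CPM in the noninjected libraries of controls 1 to 5, and 0.794, 0.237, 0.173, 1.12 and 0.8 CPM in their formalin libraries. Rag1 measured 0.319, 0.51, 1.05, 2.1 and 0.185 CPM in the noninjected libraries of icKO 1 to 5, and 1.05, 0.398, 4.47 and 1.62 CPM in the formalin libraries of icKO 2 to 5. RAG1 is the cutting subunit of the recombinase, and its 4.47 CPM in formalin icKO 4 (87 counts) was the highest of 19 libraries. Noninjected icKO 4 came next, and then formalin icKO 5.

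In the control animals 1 to 5, Dntt stood at 0.338, 0.375, 0.219, 0.094 and 0.125 CPM without injection and at 0.176, 0.396, 0.173, 0.397 and 0.0667 CPM after formalin. For Dntt in the icKO animals, the values were 0.16, 0.383, 0.878, 0.756 and 0.0618 CPM without injection (icKO 1 to 5) and 0.2, 0.149, 1.44 and 0.783 CPM after formalin (icKO 2 to 5). DNTT adds untemplated bases at the joints of antigen receptor genes. Formalin icKO 4 was again highest, and the other groups overlapped. Igll1 had 0.113, 0.0625, 0.146, 0.047 and 0.188 CPM in noninjected controls 1 to 5 and 0.0441, 0.0791, 0.0863, 0.397 and 0.2 CPM in the same animals' formalin libraries. Igll1 had 0.239, 0.0638, 0.468, 0.42 and 0.0618 CPM in noninjected icKO 1 to 5 and 0.0501, 0.0994, 0.873 and 0.313 CPM in formalin icKO 2 to 5. IGLL1 is the constant part of the surrogate light chain, and formalin icKO 4 stood at 0.873 CPM, where control 1 formalin had 0.0441 CPM, or 1 count.

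Vpreb1 measured 0.113, 0.312, 0, 0.047 and 0.188 CPM in the noninjected libraries of controls 1 to 5, and 0.176, 0.0791, 0.0863, 0.199 and 0.0667 CPM in their formalin libraries. Vpreb1 measured 0.0798, 0.128, 0.176, 0 and 0.185 CPM in the noninjected libraries of icKO 1 to 5, and 0, 0.0497, 0.359 and 0.678 CPM in the formalin libraries of icKO 2 to 5. VPREB1 is the variable part of the surrogate light chain. Its highest library was formalin icKO 5, with 13 counts, and 3 libraries had none. Vpreb3, which assists assembly of the precursor receptor, ranged from 0.133 to 2.21 CPM, and Rag2 from 0 to 0.365 CPM. Summed over the 6 genes, the level was 1.71 ± 0.593 CPM (SD, n = 5) in noninjected controls, 1.61 ± 0.784 in formalin controls, 2.19 ± 1.45 in noninjected icKO and 4.16 ± 3.87 (n = 4) in formalin icKO. Within formalin icKO, animals 4 and 5 summed to 9.60 and 4.23 CPM, where animals 2 and 3 summed to 1.65 and 1.14 CPM.

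Mature B cell genes had the same leading library. In the control animals 1 to 5, Cd79a stood at 2.76, 1.31, 1.82, 3.15 and 1.56 CPM without injection and at 2.6, 2.29, 1.38, 4.17 and 1.6 CPM after formalin. For Cd79a in the icKO animals, the values were 1.2, 1.78, 1.35, 3.86 and 2.04 CPM without injection (icKO 1 to 5) and 1.7, 1.04, 8.11 and 4.12 CPM after formalin (icKO 2 to 5). CD79A is a signalling chain of the B cell receptor. Cd79b had 4.11, 1.81, 2.99, 3.85 and 2.19 CPM in noninjected controls 1 to 5 and 3.4, 1.5, 1.29, 4.63 and 1.87 CPM in the same animals' formalin libraries. Cd79b had 1.92, 1.85, 2.98, 5.8 and 4.33 CPM in noninjected icKO 1 to 5 and 2.46, 1.34, 11.2 and 7.41 CPM in formalin icKO 2 to 5. Both signalling chains were highest in formalin icKO 4 and lowest in formalin icKO 3 or control 3, and the labelled groups overlapped.

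Ms4a1 measured 3.26, 0.625, 1.39, 2.54 and 1.69 CPM in the noninjected libraries of controls 1 to 5, and 1.37, 0.633, 1.04, 2.85 and 0.667 CPM in their formalin libraries. Ms4a1 measured 0.558, 0.255, 1.23, 2.52 and 0.989 CPM in the noninjected libraries of icKO 1 to 5, and 1.25, 0.199, 7.6 and 4.59 CPM in the formalin libraries of icKO 2 to 5. Ms4a1 encodes CD20, a surface protein of mature B cells, and spanned 0.199 to 7.60 CPM, the former in formalin icKO 3. The other genes of the class followed the same libraries. Pax5, the factor that keeps B cell identity, ranged from 0.562 to 8.99 CPM and Ighd, the IgD heavy chain gene, from 0.746 to 12.7 CPM. Spib and Pou2af1, which encode a B cell transcription factor and a coactivator, reached 8.99 and 6.63 CPM, and the kinase gene Blk 3.08 CPM. Of the 11 mature B genes, 9 were highest in formalin icKO 4. The exceptions were Blnk, an adaptor of B cell receptor signalling, and Ighm.

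In the control animals 1 to 5, Ighm stood at 79.5, 69.9, 212, 115 and 103.0 CPM without injection and at 111, 70.7, 86.4, 99.2 and 68.7 CPM after formalin. For Ighm in the icKO animals, the values were 59.4, 86.7, 63.5, 70.9 and 57.8 CPM without injection (icKO 1 to 5) and 86.9, 63.9, 103 and 78.6 CPM after formalin (icKO 2 to 5). Ighm was highest in noninjected control 3, at 211.8 CPM, and in formalin icKO 4 stood within the range of the noninjected controls. Its libraries spanned 57.8 to 211.8 CPM, a narrower range than that of the other 10 mature B genes, whose highest sum was 9.59 times the lowest. Ighm supplied most counts of the class, so the sums below leave it out.

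Of the antibody-secreting genes, Jchain was the most abundant member of the whole set. Jchain had 188, 28.1, 74, 124 and 49.2 CPM in noninjected controls 1 to 5 and 146, 87.5, 41.5, 229 and 26.9 CPM in the same animals' formalin libraries. Jchain had 101, 199, 98.8, 85.8 and 219 CPM in noninjected icKO 1 to 5 and 114, 29.1, 213 and 323 CPM in formalin icKO 2 to 5. The joining chain links IgM and IgA molecules. Its highest library was formalin icKO 5 and its lowest formalin control 5, and the groups overlapped. Mzb1, which helps fold antibody chains, ranged from 0.0625 to 0.712 CPM with at most 9 counts.

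T cell genes did not share the leading library of the B cell genes. Cd3e measured 0.675, 0.438, 0.802, 1.97 and 0.75 CPM in the noninjected libraries of controls 1 to 5, and 0.574, 0.633, 0.345, 1.72 and 0.267 CPM in their formalin libraries. Cd3e measured 0.957, 1.27, 1.05, 1.01 and 0.927 CPM in the noninjected libraries of icKO 1 to 5, and 0.551, 0.696, 0.873 and 1.83 CPM in the formalin libraries of icKO 2 to 5. CD3E is a signalling chain of the T cell receptor. Both libraries of control 4 and formalin icKO 5 were high.

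In the control animals 1 to 5, Trac stood at 1.57, 0.938, 1.97, 2.68 and 0.5 CPM without injection and at 0.927, 1.43, 1.12, 1.72 and 0.467 CPM after formalin. For Trac in the icKO animals, the values were 1.12, 1.59, 1.41, 1.01 and 1.11 CPM without injection (icKO 1 to 5) and 1.6, 0.746, 1.64 and 3.13 CPM after formalin (icKO 2 to 5). Trbc2 had 1.18, 0.438, 2.04, 2.58 and 0.688 CPM in noninjected controls 1 to 5 and 1.28, 0.554, 0.604, 1.52 and 0.133 CPM in the same animals' formalin libraries. Trbc2 had 1.12, 1.47, 1.23, 0.504 and 1.61 CPM in noninjected icKO 1 to 5 and 1.65, 0.597, 1.59 and 2.87 CPM in formalin icKO 2 to 5. Trac and Trbc2 encode constant regions of the T cell receptor, and both were highest in formalin icKO 5 and low in formalin control 5. Trbc1 and Trbc2 are near-identical copies, so the split of reads between them is uncertain.

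Cd4 measured 2.25, 1.38, 2.41, 3.38 and 1.12 CPM in the noninjected libraries of controls 1 to 5, and 1.06, 1.27, 1.38, 2.51 and 1.53 CPM in their formalin libraries. Cd4 measured 1.6, 1.66, 0.644, 1.26 and 2.66 CPM in the noninjected libraries of icKO 1 to 5, and 1.7, 1.84, 2.52 and 3.34 CPM in the formalin libraries of icKO 2 to 5. CD4 marks helper T cells and is also made by some macrophages. In the control animals 1 to 5, Cd8a stood at 0.788, 0.688, 1.9, 3.9 and 0.688 CPM without injection and at 0.839, 1.19, 1.38, 2.12 and 0.734 CPM after formalin. For Cd8a in the icKO animals, the values were 1.92, 1.78, 1.46, 1.09 and 1.98 CPM without injection (icKO 1 to 5) and 1.15, 0.746, 1.39 and 3.34 CPM after formalin (icKO 2 to 5). CD8A marks cytotoxic T cells. Cd4 and Cd8a were both highest in noninjected control 4.

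Of the 15 T cell genes, 8 were highest in formalin icKO 5, 6 in noninjected control 4 and 1, the adhesion gene Cd2, in formalin icKO 4. The heat map of the 34 genes shows these blocks of libraries.

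**Figure D1:**
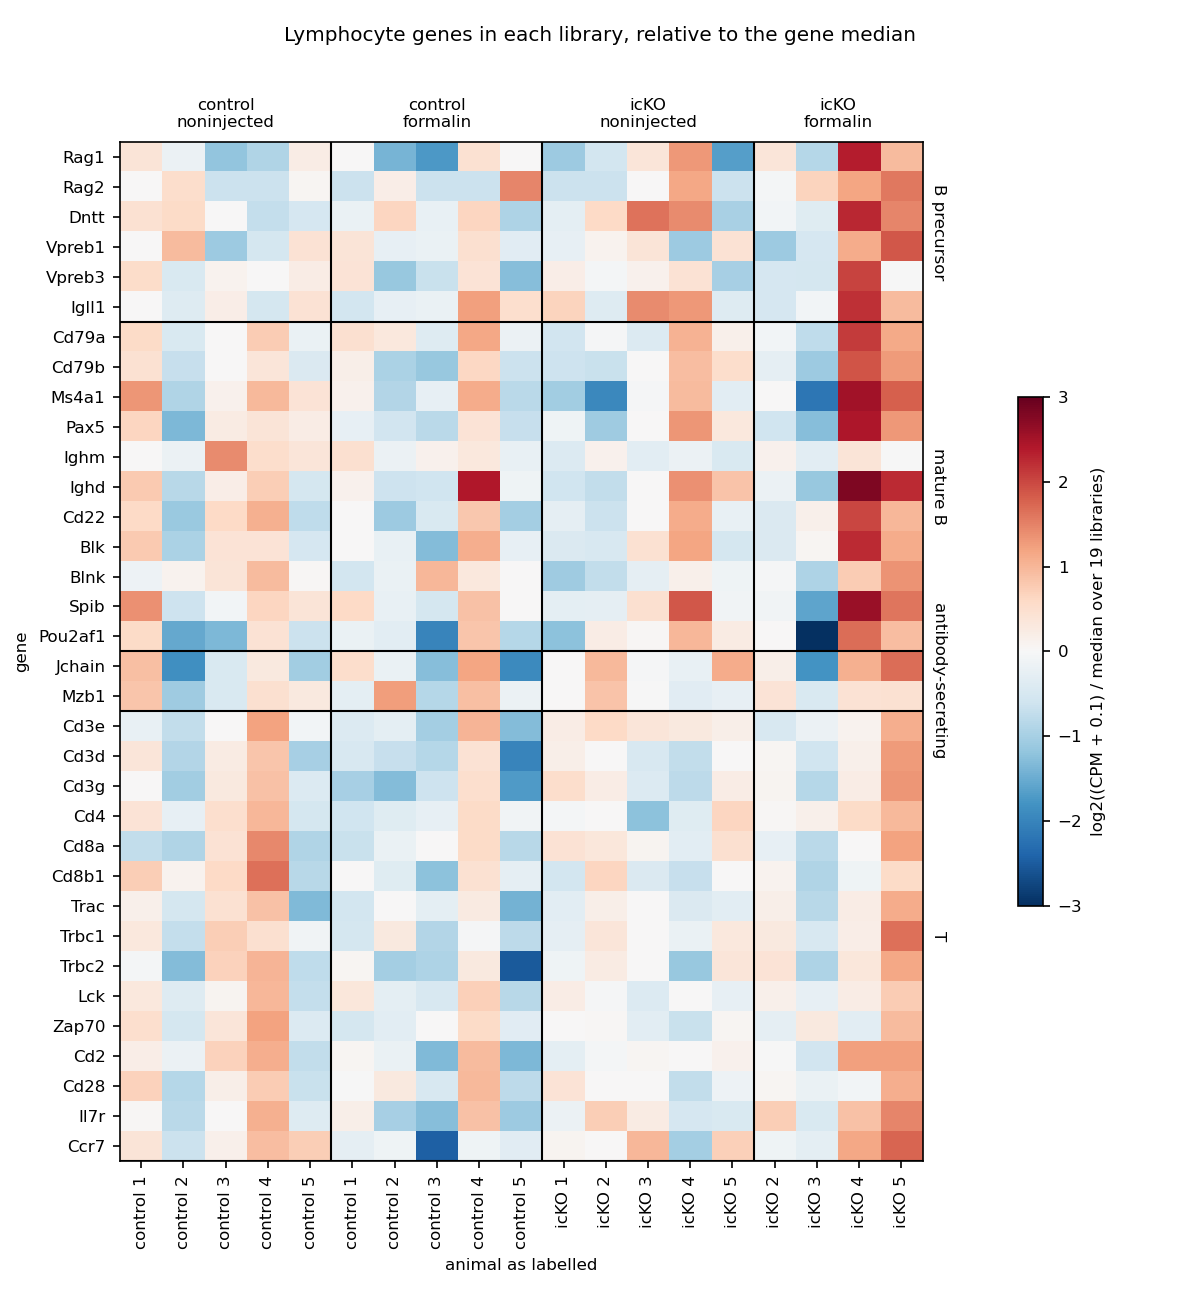
Level of each of the 34 genes (rows, grouped by role) in each of the 19 libraries (columns, grouped by label), as log2 of CPM plus 0.1 over the gene's median across libraries; red is above and blue below the median. The column of formalin icKO 4 is red through the precursor and mature B rows, with Ighm pale. That of formalin icKO 5 is red through the T rows and most precursor and mature B rows.

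B and T lineage genes were not raised in equal measure. In formalin icKO 4, the 6 precursor genes stood at a median of 5.16 times their median over libraries, the 11 mature B genes at 4.45 times and the 15 T genes at 1.17 times. In formalin icKO 5 the same medians were 3.18, 2.48 and 2.33. In noninjected control 4 they were 0.423, 1.61 and 2.10. T cell genes made up 24.7% of T plus B counts in formalin icKO 4 (95% exact binomial interval 22.9 to 26.7) and 27.6% in noninjected icKO 4 (24.2 to 31.3). The other 17 libraries lay between 41.9% and 65.6%, so both libraries of animal icKO 4 stood apart on these counts. B counts here are those of the 6 precursor and 10 mature genes without Ighm, and the intervals cover counting error only. The separation of icKO 4 depends on leaving Ighm out. With Ighm kept, mature B and T counts were 3541 and 503 in formalin icKO 4, and 1302 and 175 in noninjected icKO 4. They were 3166 and 348 in noninjected control 3, where the T share was then lower than in either.

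Within the B lineage, the share of precursor genes differed between libraries by more than counting error. They made up 10.9% (9.45 to 12.5) of B counts without Ighm in formalin icKO 4 and 7.90% (6.32 to 9.73) in formalin icKO 5. Over all 19 libraries the median was 9.59%, from 3.20% (1.61 to 5.65) in noninjected icKO 5 to 15.2% (11.6 to 19.4) in noninjected icKO 3. Noninjected control 4, where mature B genes were above their median, had 3.40% (2.14 to 5.10). The group medians were 7.82% in noninjected controls, 7.34% in formalin controls, 10.9% in noninjected icKO and 10.2% in formalin icKO, and all 4 ranges overlapped. The order of libraries depends on leaving Ighm out. With Ighm kept in the B counts, formalin icKO 4 had the highest precursor share of the 19, at 5.02%. Noninjected icKO 3 followed at 3.75%, and formalin icKO 5 had 3.20%. The lowest was 0.503%, in noninjected control 3.

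Summed levels set the libraries in order. The 10 mature B genes without Ighm summed to 78.6 CPM in formalin icKO 4, 49.3 in formalin icKO 5, 38.5 in noninjected icKO 4 and 37.4 in formalin control 4, with a median of 17.6 and a lowest value of 8.20 in formalin icKO 3. The 15 T genes summed to 45.4 CPM in formalin icKO 5, 41.9 in noninjected control 4 and 30.6 in formalin control 4, with a median of 20.8 and a lowest value of 9.54 in formalin control 5. The 2 libraries of animal control 4 were thus high in both conditions.

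**Figure D2:**
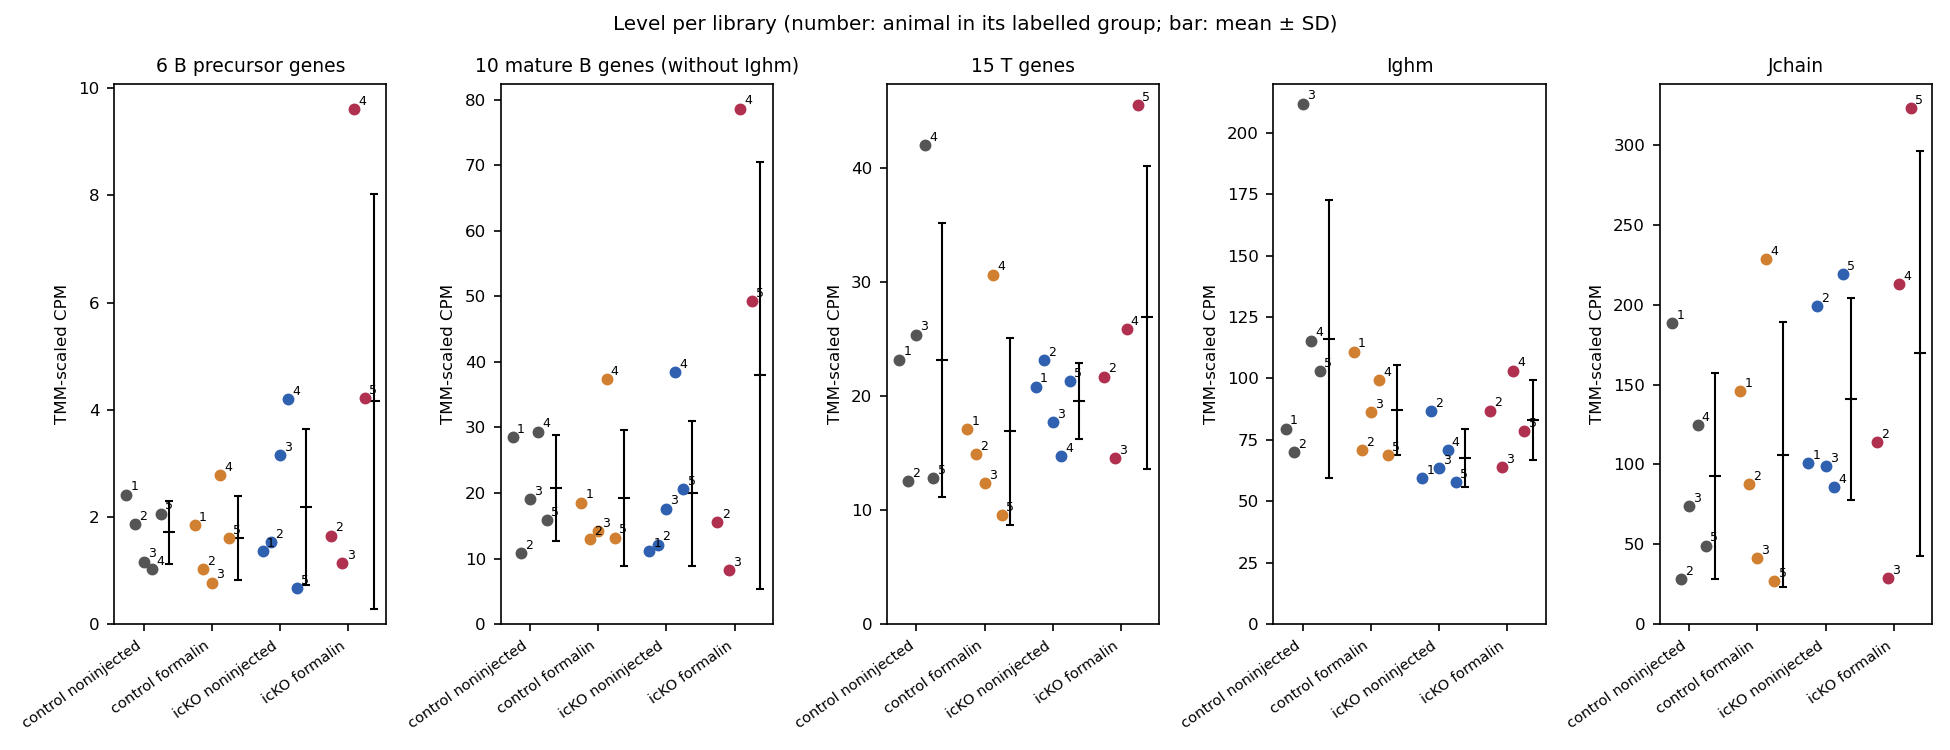
TMM-scaled CPM per library (points, numbered by animal) in the 4 labelled groups, with mean and SD beside each group, for 3 summed gene classes and for Ighm and Jchain. Formalin icKO 4 and 5 lie above their group's other animals for the B classes, whereas Ighm peaks at 211.8 CPM in noninjected control 3.

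Some markers of other blood cells were high in the libraries that were high in B cell genes. The 14 marrow granulocyte genes summed to 3840 CPM in formalin icKO 4, 1718 in formalin icKO 5, 1472 in formalin control 4 and 1400 in noninjected icKO 4, against a median of 589.2. These are the same 4 libraries that led the mature B genes. The 11 erythroid genes summed to 1839 CPM in formalin icKO 5 and 1587 in formalin icKO 4 (median 322.4), and the 12 proliferation genes to 161.6 and 233.0 CPM (median 53.1). The 12 macrophage genes summed to 1102 and 816.6 CPM in these libraries (median 472.2), and the 9 dendritic cell genes to 938.0 and 556.1 CPM (median 496.9). Other blood lists had another leading library. The 5 megakaryocyte and platelet genes were highest in noninjected control 1, at 70.4 CPM. Formalin icKO 5 and icKO 4 came next, at 49.7 and 47.6 CPM (median 25.8). The sum of the 6 haematopoietic progenitor genes, highest in noninjected icKO 5, varied 1.36-fold over the 19 libraries. The 10 skeletal muscle genes summed to 2060 CPM in formalin icKO 5, against a median of 95.6, and to 111.2 CPM in formalin icKO 4. Of the 6 genes listed for thymocytes, Ptcra, the pre-T cell receptor chain, and Tdgf1, which is not specific to them, stayed under 10 counts in every library, as did 3 of 6 genes of lymph node stroma (Madcam1, Glycam1 and Chst4). The part of these cell types in the lymphocyte gene levels was not tested.

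**Figure D3:**
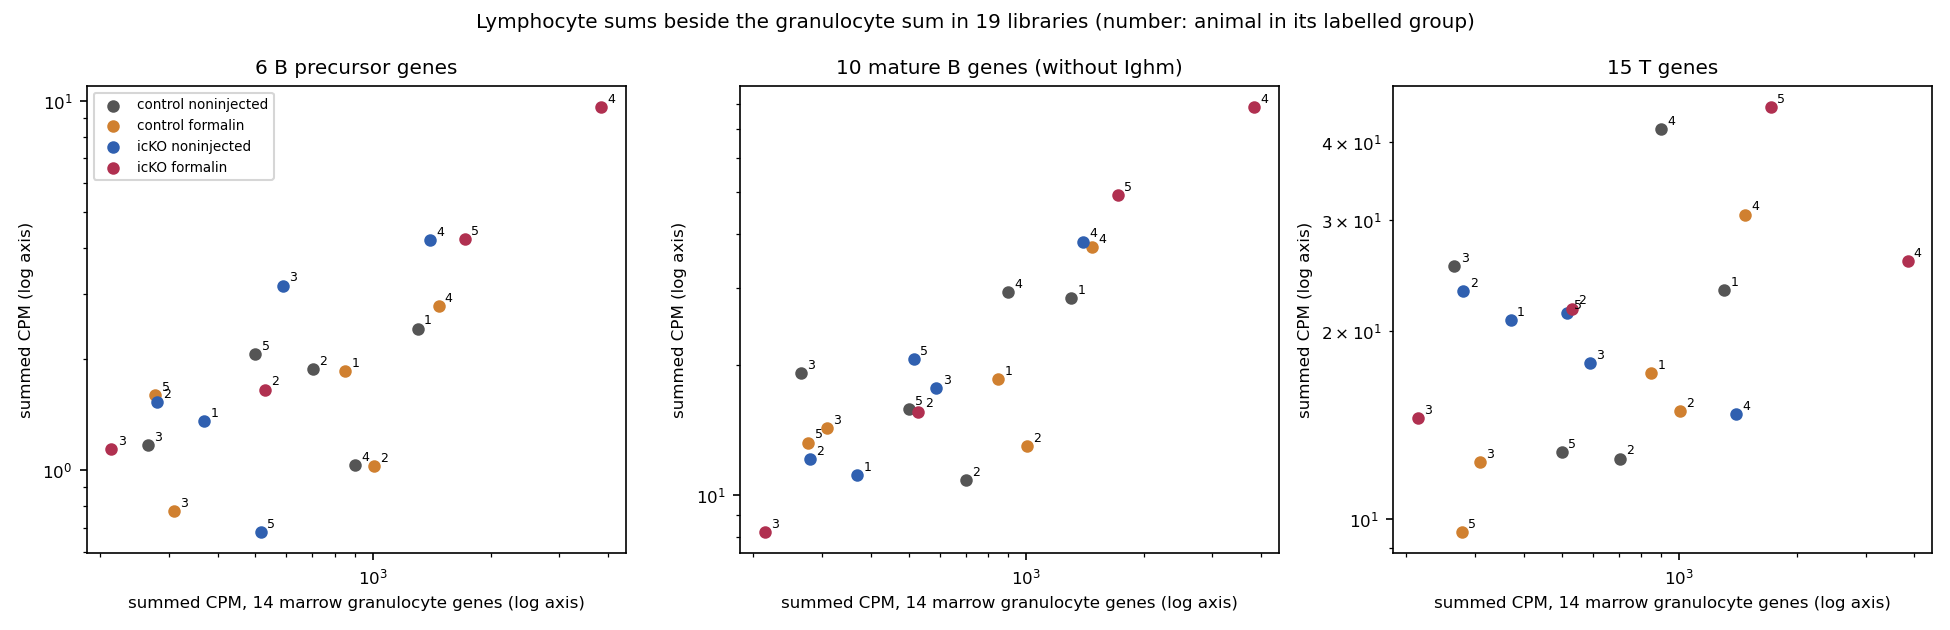
Summed CPM of the B precursor, mature B (without Ighm) and T genes against that of 14 marrow granulocyte genes, on log axes, for 19 libraries numbered by animal and coloured by labelled group. Formalin icKO 4 is at the upper right for both B classes. For the T genes it stands at 25.8 CPM, above the median of 20.8 CPM but below formalin icKO 5 and both libraries of control 4.

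With all 10 animals grouped by title, no lymphocyte gene passed the test between genotypes. Counts of both libraries were summed per animal, except for icKO 1, which had only its noninjected library. The totals were compared with edgeR's quasi-likelihood test with a sex term. Of 19441 genes, 0.0% passed at an adjusted p of 0.05. Of 31 members tested 0 passed. At an unadjusted p under 0.05 there were 2 (9.34% of all genes), and DESeq2 called 0 (0.315% of all genes). The median difference (icKO over control, log2) was 0.43 over the members and 0.009 over all genes. Dntt had 1.23 (SE 0.48, adjusted p = 0.507 by edgeR), the T and B cell homing receptor gene Ccr7 0.71 (SE 0.29, adjusted p = 0.509) and Rag1 0.97 (SE 0.53, adjusted p = 0.57). These differences lay within the spread between animals.

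In noninjected libraries, again by title, 0 of 30 members passed (0.0% of 17671 genes), 1 had an unadjusted p under 0.05 (8.7% of all genes) and DESeq2 called 0 (0.00256%). The median was -0.03. Ighm had -0.69 (SE 0.24, adjusted p = 0.549 by edgeR), Blnk -0.54 (SE 0.27, adjusted p = 0.57), Dntt 1.01 (SE 0.72, adjusted p = 0.685) and Rag1 0.32 (SE 0.67, adjusted p = 0.918). In formalin libraries 0 of 30 passed (0.0% of all genes), 6 had an unadjusted p under 0.05 (12.6%) and DESeq2 called 0 (0.086%). Here 29 of 30 were above 0, with a median of 0.85. Ccr7 had 1.46 (SE 0.55, adjusted p = 0.366), Trbc1 1.02 (SE 0.40, adjusted p = 0.366), Rag1 1.44 (SE 0.64, adjusted p = 0.372) and Dntt 1.37 (SE 0.70, adjusted p = 0.416). Grouped instead by the genotype word in the deposited names, 9 members passed in formalin libraries (3.05% of all genes called higher): Ighd, Cd79b, Cd79a, Vpreb3, Pax5, Spib, Cd2, Jchain and Ms4a1. That grouping gave 0 members in noninjected libraries (9.38% of all genes called) and 0 in animal totals (1.08%).

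In the 6 animals whose records agree, most mature B genes and a minority of T genes were called higher in icKO ganglia after formalin. Of 29 members tested, 14 rose and 0 fell, against 6.33% of 17669 genes called higher and 2.81% called lower. At an unadjusted p under 0.05 there were 23 members, against 26.8% of all genes. The median was 2.17 on the log2 scale, against -0.001 over all genes. Mature B genes gave 9 of 11 (median 2.32), T genes 5 of 15 (median 1.53), and the precursors 0 of 2 tested, Rag1 and Dntt. The other 4 precursor genes and Mzb1 had too few counts to be tested. The comparison set formalin controls 2, 3 and 5 against formalin icKO 4 and 5, both male, since the formalin library of icKO 1 was left out.

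Ighd showed the smallest p, with 1.11, 1.12 and 1.6 CPM in controls 2, 3 and 5, and 12.7 and 8.71 CPM in icKO 4 and 5. Its difference was 2.75 (SE 0.36, adjusted p = 0.00192 by edgeR), a 6.75-fold higher level. Cd79b rose by 2.35 (SE 0.33, adjusted p = 0.00249) and Ms4a1 by 2.66 (SE 0.43, adjusted p = 0.00422). In both genes, as in Ighd, the 2 icKO libraries lay above all 3 controls. How many of all genes show this order was not counted.

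Pax5 had 1.03, 0.864 and 0.934 CPM in controls 2, 3 and 5, and 8.99 and 4.02 CPM in icKO 4 and 5, a rise of 2.49 (SE 0.48, adjusted p = 0.0107). Cd22 had 0.633, 1.04 and 0.667 CPM in controls 2, 3 and 5, and 6.16 and 3.03 CPM in icKO 4 and 5, a rise of 2.31 (SE 0.54, adjusted p = 0.0227). Cd79a, Spib, Blk and Pou2af1 also rose, by 1.68 to 2.33. The B cell genes that did not pass were Ighm at 0.12 (SE 0.38, adjusted p = 0.872) and Blnk at 0.59 (SE 0.33, adjusted p = 0.273).

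Il7r, the receptor for interleukin 7 that both T cells and B precursors carry, had 0.871, 0.691 and 0.8 CPM in controls 2, 3 and 5, and 3.44 and 5.22 CPM in icKO 4 and 5. It rose by 2.42 (SE 0.34, adjusted p = 0.00249 by edgeR). Cd2 had 0.871, 0.345 and 0.334 CPM in controls 2, 3 and 5, and 2.52 and 2.5 CPM in icKO 4 and 5, a rise of 2.31 (SE 0.50, adjusted p = 0.0151). Lck, the kinase that starts T cell receptor signalling, had 2.85, 2.5 and 1.93 CPM in controls 2, 3 and 5, and 4.16 and 6.05 CPM in icKO 4 and 5, a rise of 1.15 (SE 0.30, adjusted p = 0.0308). Cd3d and Cd3g rose by 2.15 and 2.17, in fits that called them in 7 and 8 of 14 settings. In Il7r, Cd2, Lck, Cd3d and Cd3g the groups did not overlap. The share of all genes without overlap was not counted.

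The other 10 T genes had differences from 0.66 (Zap70, a kinase of the receptor) to 2.37 (Ccr7) without passing, Cd3e at 1.70 (SE 0.50, adjusted p = 0.0515 by edgeR) being nearest. Cd4 had 0.97 (SE 0.38, adjusted p = 0.12) and Cd8a 1.09 (SE 0.54, adjusted p = 0.217). Trac had 1.35 (SE 0.55, adjusted p = 0.139) and Trbc2 2.28 (SE 0.73, adjusted p = 0.0745). Rag1 had 2.62 (SE 0.92, adjusted p = 0.105) and Dntt 2.62 (SE 0.81, adjusted p = 0.0627), differences as large as those of the mature B genes but with wider errors. Jchain had 2.36 (SE 0.74, adjusted p = 0.101). DESeq2 called 18 members (7.83% of all genes called higher), adding Jchain, Rag1, Trbc2 and Vpreb3.

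These calls rested on few animals. Fitting only the groups compared gave 12 members (5.13% of genes called higher), without Lck, Cd3d, Cd3g and Blk. Of the T genes, Cd2 and Il7r, which B precursors also carry, were still called. Leaving out control 2 gave 10 (5.43%), without Cd22, Lck, Cd3d, Cd3g, Spib and Blk. Leaving out control 3 (1.17% of genes called higher) or control 5 (0.514%) left 3 members called, Ighd, Cd79b and Il7r, which passed in all 14 fits run. Leaving out icKO 4 or icKO 5, or the formalin library of either, left 1 formalin icKO library, which these fits assume to vary like the other groups, so their counts say nothing of the spread between icKO animals. Without icKO 4 in the fit 18 passed (10.6% of genes). Without icKO 5, whose formalin library held the muscle transcripts, 12 passed (5.77%). Leaving out only the formalin library of icKO 4 gave 13 members (9.91%), with Cd79a, Cd22, Spib, Blk and Pou2af1 no longer among them. Leaving out only that of icKO 5 gave 11 (4.46%), with Lck, Cd3d, Cd3g and Pou2af1 no longer among them.

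**Figure D4:**
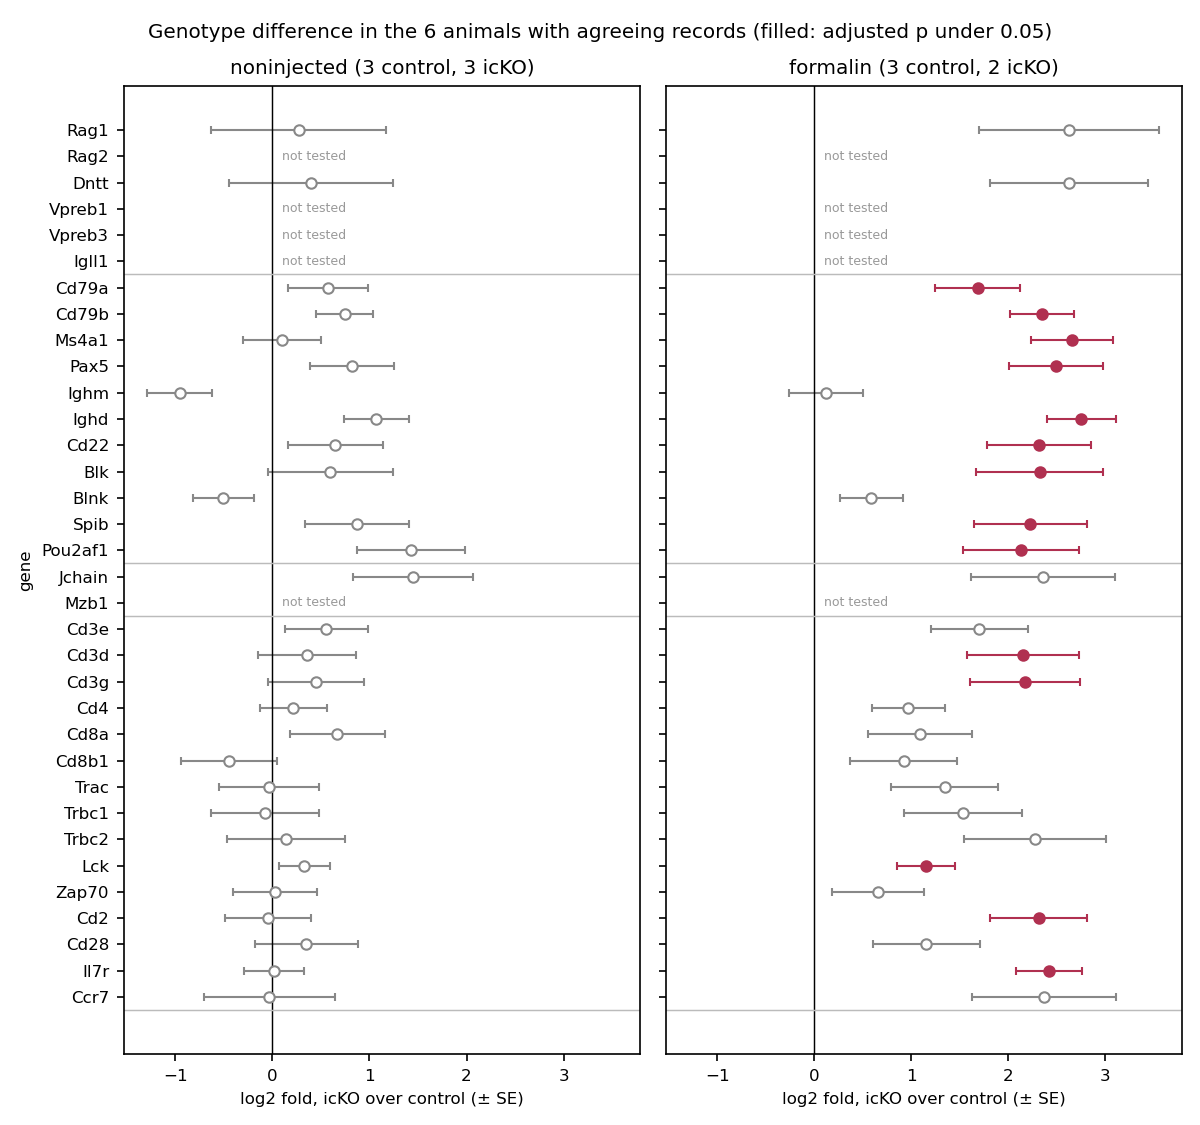
Genotype difference (log2, icKO over control, with SE) of each member in the 6 animals with agreeing records, in noninjected libraries on the left and formalin libraries on the right; filled points passed an adjusted p of 0.05. All 14 filled points are on the formalin side, between 1.15 and 2.75.

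Genes of the same lineages and of several other cell types were also called higher in this comparison. Of 22 further B lineage genes 20 were tested and 9 rose, among them the kinase gene Btk by 1.96 (SE 0.32, adjusted p = 0.00434 by edgeR) and Bank1 by 1.30 (SE 0.24, adjusted p = 0.00745). Of 16 further T cell genes 11 were tested and 2 rose, Lat and Cd5. Of 8 further plasma cell genes 1 rose, Prdm1. Erythroid genes rose in 11 of 11, among them Bpgm and Epor, and proliferation genes in 11 of 12. Of the natural killer and cytotoxic genes 3 were tested and 2 rose, Il2rb and Klrd1. Of 9 dendritic cell genes 4 rose (Siglech, Clec9a, Cd74 and Cd209a), of 12 macrophage genes 2 (Lyz2 and Itgam), of 6 haematopoietic progenitor genes 3 (Myb, Gata1 and Cd34), and of 7 bone and cartilage genes tested 2 (Ibsp and Acp5). Of 4 megakaryocyte and platelet genes tested 0 passed (0 at an unadjusted p under 0.05, and 0 by DESeq2). Marrow granulocyte genes had a median of 2.69 with all 14 above 0, but 1 passed, Elane. Of 8 skeletal muscle genes tested 0 passed (median 5.48; 8 at an unadjusted p under 0.05). The part of these cell types in the lymphocyte gene calls was not tested.

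Without injection, the same 6 animals gave 0 called members of 29, where 4.7% of genes were called in either direction. At an unadjusted p under 0.05 there were 4 (23.2% of genes), and DESeq2 called 0 (10.8%). The median was 0.35. Ighd had 1.07 (SE 0.34, adjusted p = 0.084 by edgeR), Ighm -0.96 (SE 0.33, adjusted p = 0.141), Dntt 0.40 (SE 0.84, adjusted p = 0.817) and Rag1 0.27 (SE 0.90, adjusted p = 0.889). Ighm was at 69.9, 211.8 and 103.0 CPM in noninjected controls 2, 3 and 5, against 59.4, 70.9 and 57.8 CPM in icKO 1, 4 and 5, so the groups overlapped. Ighd was called in this comparison without the formalin library of icKO 4, and also without that of icKO 5, where in each case 11.7% of genes were called.

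With the libraries kept summed per animal, the 6 animals gave 0 called members of 30, where 0.897% of genes were called. Here 15 members had an unadjusted p under 0.05, against 19.1% of genes. DESeq2 called 5, Jchain, Ighd, Pax5, Cd79b and Il7r, against 5.92% of genes. The median was 1.11. Il7r had 1.16 (SE 0.25, adjusted p = 0.0801 by edgeR), Pax5 1.59 (SE 0.38, adjusted p = 0.0997), Dntt 1.47 (SE 0.78, adjusted p = 0.347) and Rag1 1.43 (SE 0.83, adjusted p = 0.401). Ighd in animal totals was at 1.00, 1.63 and 1.39 CPM in controls 2, 3 and 5, against 1.13, 9.70 and 6.15 CPM in icKO 1, 4 and 5. Female icKO 1 thus lay among the controls. Its total held the noninjected library alone, so animal and condition cannot be told apart in this contrast.

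The genotype difference itself was compared between formalin and noninjected libraries of the 6 animals. By edgeR 0 of 29 members passed, where 0.368% of genes did. At an unadjusted p under 0.05 there were 11 (25.3% of genes), and DESeq2 called 4 (8.2%). All 29 differences were above 0, with a median of 1.60. Il7r had 2.41 (SE 0.47, adjusted p = 0.0522) and Ms4a1 2.56 (SE 0.59, adjusted p = 0.067), and Rag1 2.35 (SE 1.29, adjusted p = 0.282). With the animal as a block, which pairs its 2 libraries, 4 members passed (6.03% of genes): Il7r, Ms4a1, Cd3g and Cd79b. Without icKO 4 the unblocked fit called 8 (19.4% of genes), and without its formalin library alone 4 (20.8%). In both fits icKO 5 was the lone formalin icKO library, assumed to vary like the other groups. Over all animals by title, 0 of 30 passed (0.0% of genes), 2 had an unadjusted p under 0.05 (5.22%) and DESeq2 called 0 (0.0%). Blnk stood at 0.87 (SE 0.39, adjusted p = 0.786) and Cd4 at 0.99 (SE 0.44, adjusted p = 0.786).

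Formalin itself moved no lymphocyte gene past the threshold in either labelled genotype. These groups by title mix animals with low and high Prdm12, so they do not describe either genotype alone. In controls 0 of 30 passed (0.0% of genes), 0 had an unadjusted p under 0.05 (3.23%) and DESeq2 called 0 (0.0%), with a median of -0.36 and all 15 T genes below 0 (median -0.47). Cd8b1, the partner chain of CD8A, had -0.91 (SE 0.44, adjusted p = 1.0 by edgeR) and Ccr7 -0.97 (SE 0.55, adjusted p = 1.0). Rag1 had -0.09 (SE 0.68) and Dntt 0.06 (SE 0.79).

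In animals labelled icKO 0 of 30 passed (0.0% of genes), 1 had an unadjusted p under 0.05 (5.29%) and DESeq2 called 0 (0.0%). Of the 30, 28 were above 0, with a median of 0.50. Blnk had 0.70 (SE 0.28, adjusted p = 0.687 by edgeR), Ms4a1 1.31 (SE 0.68, adjusted p = 0.687) and Rag1 1.03 (SE 0.65, adjusted p = 0.687). With both genotypes pooled 0 of 30 passed (0.0% of genes), 0 had an unadjusted p under 0.05 (2.91%), DESeq2 called 0 (0.0%) and the median was 0.10. Cd79a had 0.45 (SE 0.31, adjusted p = 0.929) and Ighd 0.64 (SE 0.45, adjusted p = 0.929). None of these differences passed this test, which did not pair an animal's 2 libraries.

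Males had higher values than females for nearly all members, without passing. In animal totals 0 of 31 members passed (0.0566% of genes called), 30 of 31 were above 0 in males over females, and 10 had an unadjusted p under 0.05 (12.0% of genes). The median was 0.63 over the members, 0.99 over the 11 mature B genes, 0.52 over the 15 T genes and -0.006 over all genes. Blnk stood at 4.84, 4.77, 2.97, 4.40 and 5.31 CPM in the males (controls 3, 4 and 5, icKO 4 and 5) and at 2.25, 2.88, 1.38, 2.33 and 1.92 CPM in the females (controls 1 and 2, icKO 1, 2 and 3). The sexes did not overlap in Blnk, and the share of all genes without such overlap was not counted. The Blnk difference was 1.02 (SE 0.20, adjusted p = 0.214 by edgeR and 0.00156 by DESeq2, which called this 1 member and 0.829% of genes). Ighd had 1.71 (SE 0.53, adjusted p = 0.355) and Rag1 0.84 (SE 0.53, adjusted p = 0.52). The marrow granulocyte genes had a median of 0.84 and the erythroid genes 0.90 in the same comparison, with 0 of 14 and 0 of 11 passing, and their part in it was not tested.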

How the data were processed

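PolyA RNA of lumbar dorsal root ganglia was sequenced from 10 mice, 2 libraries each, with a kit that does not mark strand per the labels' protocols. The authors deposited raw counts per Ensembl gene. Tools named in the submitters' processing notes are bcl2fastq (2.20.0.422), STAR (2.7.8a) and featureCounts (2.0.1), with build GRCm39. The sources used here do not say how reads with several matches were counted, which leaves near-identical or overlapping genes, such as receptor segments, uncertain.

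Symbols were found for 52083 of 55416 IDs, and 215 of 216 list entries matched. Groups came from sample titles. The members and lists were chosen with earlier results of these data known. All 34 members are accounted for. Those past the threshold are named, and elsewhere the 2 of smallest p, with Rag1 and Dntt wherever tested.

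The library under 1000000 counts was left out. Levels are CPM on TMM-scaled totals, and levels per kilobase used median GENCODE transcript lengths. Fits covered all genes passing filterByExpr, with edgeR 4.0.16 (robust quasi-likelihood, TMM, sex term, Benjamini-Hochberg adjustment, threshold 0.05) in R 4.3.3, and were tested on simulated data. Animal totals are sums of an animal's libraries that were kept. P-values of animal totals measure the spread between animals. Those of the other fits measure the spread between libraries of a group. They count an animal's 2 libraries as independent, except where the animal is a block.

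The fits were repeated with RLE size factors, with DESeq2 (1.42.0), without the filter on low counts, without the sex term, without each animal, without the formalin library of icKO 4 or icKO 5, on only the groups compared, by the genotype word in the deposited names, and with replicate blocks. The deposited names number the animals, which pairs an animal's formalin and noninjected libraries. As a check, the 2 libraries of each animal were compared by how they departed from their group means, and the 9 correlations ran from -0.0523 (icKO 3) to 0.491.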

Additional observations from a re-analysis of the deposited data

Results flagged for a closer look

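In 68 sets of 4 or 5 libraries of a labelled group, 3 single values stood apart from the rest of their group by a gap larger than Dixon's limit at 95%, which chance alone passes in about 1 in 20 groups. The 3 found in 68 sets are about that share. All 3 belonged to the animal labelled control 4, whose genotype records differ and whose Prdm12 stood at 32.7 CPM. Cd3e, a T cell receptor chain, stood at 1.97 CPM in its noninjected library, where the nearest control had 0.802 CPM. It stood at 1.72 CPM in its formalin library, with the nearest control at 0.633 CPM. The summed level of the mature B genes without Ighm was 37.4 CPM in the same formalin library, against 18.5 CPM in the nearest control.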

How the results depend on the processing

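Each count of members called was recomputed under the alternatives, and a count was held to have moved when it left the range of 1.5 times the reported one. With no filter beyond a count above 0, the counts, each with the share of all genes called in the same fit, were 5 (animal totals, all 10 animals, 2.18%), 14 (sex, 2.81%), 15 (animal totals, 6 animals, 5.16%), 2 (noninjected, by title, 1.25%), 11 (formalin, by title, 3.26%), 2 (formalin in icKO, 1.41%), 1 (formalin, pooled, 0.481%), 2 (formalin by genotype, all animals, 1.08%), 4 (noninjected, 6 animals, 5.58%), 25 (formalin, 6 animals, 8.7%) and 17 (formalin by genotype, 6 animals, 7.49%). With DESeq2 they were 1 (sex), 5 (animal totals, 6 animals) and 4 (formalin by genotype, 6 animals). Grouping by deposited name gave 9 (formalin, by title). For noninjected libraries of the 6 animals, leaving out the formalin library of icKO 5 or of icKO 4 gave 1 each, and fitting only the groups compared gave 1 (9.28%). For formalin by genotype in the 6 animals, no sex term gave 1 (0.436%), leaving out the formalin library of icKO 5 gave 1 (0.512%) and that of icKO 4 gave 4, and the replicate block of the animal gave 4. The causes were not tested.

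Leaving out each animal in turn gave 0 to 1 members for sex, 0 to 5 for animal totals of the 6 animals, 3 to 18 for formalin in the 6 animals and 0 to 8 for formalin by genotype in the 6 animals. The other 8 comparisons gave 0 to 0. For sex and animal totals, the share of all genes called in these fits is not given. Their counts therefore show nothing particular to the members. In formalin libraries of the 6 animals, the fits without icKO 4 or icKO 5 held 1 formalin icKO library, assumed to vary like the other groups. The title number as a replicate block left animal totals of all 10 animals at 0. No paired analysis was possible between genotypes within the 6 animals because they share only the number 5. Of single genes, Cd4 alone turned direction: its formalin by genotype difference over all animals was -0.22 with animals grouped by deposited name, against 0.99 by title. Depth limits the precursor genes: Rag2, Vpreb1 and Igll1 never passed the filter on low counts.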
